A study of Homo sapiens with 8 samples.

Results

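The EGR and NR4A immediate-early genes comprised 7 of the 19794 protein-coding genes of the annotation: EGR1, EGR2, EGR3, EGR4, NR4A1, NR4A2 and NR4A3. The genes were chosen by name as complete families, with earlier results of these data known, and RNA polymerase II (RNAPII) regions at each gene were then read from 4 lists. The lists came from MDA-MB-453 cells, an established luminal-like triple negative breast cancer line. Cells received vehicle or 600 nM CDDD11-8, an inhibitor of cyclin-dependent kinase 9 (CDK9), called D11-8 in the labels, for 4 h. Each treatment had 2 replicates from separate passages of the same line, and no genetic alteration was introduced. The comparison asked where RNAPII sits on these genes when CDK9 is inhibited. RNAPII was precipitated with the CTD4H8 antibody and regions were called in each library against its own input chromatin.

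EGR proteins are zinc finger transcription factors that bind GC-rich sites, and NR4A proteins are orphan nuclear receptors. Their genes are induced within minutes by growth factors, stress or neuronal activity without new protein synthesis, largely through serum response factor bound at CArG boxes and CREB bound at cyclic AMP response elements. At many genes RNAPII halts shortly after the transcription start site (TSS), and CDK9, the kinase of P-TEFb, phosphorylates the halted complex so that it can enter the gene body. Release from this pause is a known control point of immediate-early genes.

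A region is a stretch that the authors' peak caller found enriched, and a summit is a local maximum inside it. Gene coverage is the percent of bases from the TSS to the transcription end site (TES) that lie in regions. A promoter region overlaps the 300 bp on either side of the TSS, and the gene body starts 300 bp after the TSS. Fold enrichment is the signal of a summit over its local background, and its percentile is its position among all summits of the same list. Fold enrichment was not compared between libraries in absolute terms, since the median fold of promoter summits was 5.27 and 7.52 in the vehicle lists against 23.3 and 15.8 in the CDDD11-8 lists. The vehicle lists were also longer, with 78306 and 57493 regions against 25897 and 21842. All 8 luminal markers reported here, FOXA1 and GATA3 among them, had a promoter region in both vehicle libraries, and none of 4 basal, 3 leukocyte and 2 hepatocyte markers had one. With 2 libraries against 2, an exact two-sided permutation test cannot give a p-value below 0.33, so the values below are descriptive. Whether the libraries overlap is stated for each gene.

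The sequence before the start of EGR1 and EGR2 is shown first because these genes gained the most coverage. The sequences are GRCh37, 5′ to 3′ on the strand of the gene, from 300 bp before the canonical TSS. In EGR2 the 7 bases next to the start were left off, since an exon of another isoform holds them, and the rest lies in an intron of its longest isoform. The EGR1 window lies before any EGR1 exon. Capitals mark CArG boxes and TGACG on either strand. EGR1 is chr5:137800868-137801167 on the plus strand and EGR2 is chr10:64576134-64576426 on the minus strand.
EGR1: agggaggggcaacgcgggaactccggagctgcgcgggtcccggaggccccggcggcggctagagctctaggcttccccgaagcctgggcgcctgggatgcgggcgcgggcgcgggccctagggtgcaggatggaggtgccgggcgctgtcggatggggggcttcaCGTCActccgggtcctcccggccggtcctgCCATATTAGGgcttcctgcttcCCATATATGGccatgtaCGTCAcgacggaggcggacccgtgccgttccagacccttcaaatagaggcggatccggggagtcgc
EGR2: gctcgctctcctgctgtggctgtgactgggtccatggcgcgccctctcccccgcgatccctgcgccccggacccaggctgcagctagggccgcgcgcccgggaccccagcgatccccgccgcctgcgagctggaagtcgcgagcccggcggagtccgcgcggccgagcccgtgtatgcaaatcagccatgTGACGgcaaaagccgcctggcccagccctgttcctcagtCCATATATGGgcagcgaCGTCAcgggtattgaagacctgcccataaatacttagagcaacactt

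EGR1 held 2 CArG boxes in the 300 bp before its start, and EGR2 and EGR3 held 1 each. No match was found in this window of EGR4 or the NR4A genes, and 1.41% of all 19794 canonical promoters held a match. The letters TGACG, the core of the cyclic AMP response element, were found in every member, with 2 matches in each EGR gene and 4 in each NR4A gene over the full 300 bp, against 28.0% of all promoters with any. The full element TGACGTCA, which holds TGACG on both strands, was present in NR4A2 only and in 2.58% of promoters. TATAAA was matched in NR4A1, at −262 bp, and in 11.1% of promoters. GGGCGG had 4 matches in NR4A1 and 1 in NR4A2, against 60.7% of promoters with any. The EGR site GCGTGGGCG and the NR4A site AAAGGTCA were in none of the members and in 1.18% and 1.10% of promoters. All motifs were searched on both strands. A match describes the letters alone and says nothing of binding in these cells.

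EGR1 encodes the zinc finger factor that is the most widely induced of the EGR family. It lies at chr5:137801168-137804992 on the plus strand and is 3825 bp long, and its longest and canonical isoforms are the same. Its gene coverage was 13.4% in vehicle replicate 1 and 25.6% in vehicle replicate 2, and 100% in each CDDD11-8 replicate. The groups did not overlap, and the mean was higher by 80.5 percentage points with CDDD11-8, at 100% ± 0 (SD, n = 2) against 19.5% ± 8.67 (n = 2). This difference was higher than that of 99.97% of all protein-coding genes. A region of a given width fills more of a short gene than of a long one. The mean gain in width of the EGR1 promoter region, 6649 bp, was higher than that of 97.4% of genes with such a region in each treatment. Only 7 of the 19794 genes were covered over their whole length in both CDDD11-8 libraries and at most 30% in each vehicle library. One of them besides EGR1, AL356356.1, is also short, at 2471 bp, but had a promoter region in only 3 of the 4 libraries. Another, ADAMTSL4, was 11526 bp long and also had a promoter region in only 3. Among the 2411 genes of up to 10 kb with a promoter region in all 4, EGR1 was the only one, which rests on both of these filters. The 30% and 10 kb limits were set after the values were seen.

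The region at the EGR1 promoter spread in both directions. It measured 3169 and 3730 bp in the vehicle libraries, from −2657 to +511 bp and from −2749 to +980 bp relative to the TSS. With CDDD11-8 it measured 10076 and 10121 bp, from −4104 to +5971 bp and from −4381 to +5739 bp. The vehicle regions thus lay mostly before the gene and ended inside its first kilobase, whereas a single region ran over the whole gene with CDDD11-8. The windows from 1 to 2 kb and from 2 to 3 kb after the TSS were at 0% in both vehicle libraries and at 100% in both CDDD11-8 libraries. Over the 3 kb after the TES, coverage was 0% in both vehicle libraries and 89.5% and 88.3% with CDDD11-8. From 3 to 10 kb after the TES it was 0% with vehicle and 21.4% and 9.2% with CDDD11-8, from a separate region.

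**Figure D1:**
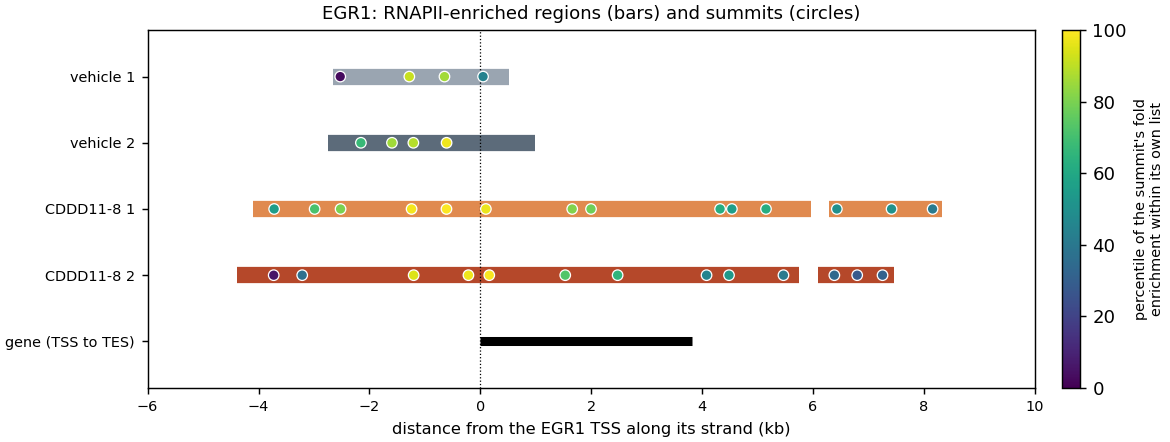
RNAPII regions (bars) and summits (circles) at EGR1 in the 4 libraries, by distance from the TSS in kb, with summits shaded by the percentile of their fold enrichment within their own list and the gene drawn as a black bar. The vehicle regions end at +511 and +980 bp, and the CDDD11-8 regions run past the TES to +5971 and +5739 bp.

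Summits inside the EGR1 body were weaker than those near its start. No EGR1 body summit was called with vehicle, and 2 were called in each CDDD11-8 library. The highest body summit lay at +1657 bp in CDDD11-8 replicate 1, with a fold enrichment of 11.7 (percentile 81.0), and at +1531 bp in replicate 2, with 7.63 (percentile 72.9). The highest summits within 300 bp of the TSS were at +100 bp with 36.5 (percentile 97.1) and at +161 bp with 30.9 (percentile 98.8). The log2 ratio of promoter to body fold was therefore 1.64 and 2.02 with CDDD11-8, with the promoter the higher of the pair. No such ratio could be formed with vehicle, where no body summit was called. With vehicle the only summit within 300 bp was at +49 bp in replicate 1, with a fold of 3.52 (percentile 44.4). Replicate 2 had no summit within 300 bp although its region crossed the TSS.

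The strongest summit of the EGR1 region lay before the gene in 3 of 4 libraries. It was at −1281 bp in vehicle replicate 1 (rank 14908 in its list by fold, percentile 91.7) and at −609 bp in vehicle replicate 2 (rank 3458, percentile 97.4). With CDDD11-8 it was at −611 bp in replicate 1 (rank 412, percentile 99.5) and at +161 bp in replicate 2 (rank 753, percentile 98.8). The vehicle lists held 178966 and 135500 summits and the CDDD11-8 lists 80894 and 64617, so the ranks themselves are not comparable between lists. The percentile by fold was higher in both CDDD11-8 libraries, whereas by pileup, the fragments stacked at the summit, the percentiles were 98.7 and 95.6 with vehicle and 97.5 and 97.4 with CDDD11-8 and overlapped. By −log10 q-value they were 98.3 and 96.8 against 98.8 and 98.5. The antisense long non-coding RNA ENSG00000289267 starts at −801 bp, within 500 bp of these upstream summits. ChIP carries no strand, so RNAPII on the antisense gene and on EGR1 cannot be told apart there.

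EGR2, a zinc finger factor required for peripheral myelination, lies at chr10:64571756-64576126 on the minus strand in its canonical isoform. No region overlapped the canonical gene in either vehicle library. With CDDD11-8 a promoter region of 2875 bp was called in replicate 1, from −915 to +1959 bp, and of 1413 bp in replicate 2, from −639 to +773 bp. Gene coverage was 0% and 0% with vehicle and 59.4% and 17.7% with CDDD11-8. The groups did not overlap, and the CDDD11-8 replicates lay far apart (38.5% ± 29.5, SD, n = 2). Of the canonical gene body, 40.8% and 11.6% lay in the promoter region itself. Replicate 1 had 5 body summits, the highest at +1460 bp with a fold of 4.95 (percentile 54.2), and replicate 2 had 1, at +448 bp with a fold of 2.71 (percentile 10.5). The highest promoter summits were at −239 bp with a fold of 8.42 (percentile 74.7) and at −294 bp with 3.73 (percentile 36.4). EGR2 summits were therefore of middling or low rank in their lists, unlike those of EGR1. The longest EGR2 isoform, which starts upstream at −2293 bp, had coverage of 0% and 0% with vehicle and 76.7% and 25.9% with CDDD11-8, and no region at its own start in any library. Without CDDD11-8 replicate 1 its mean difference was 25.9 percentage points in place of 51.3.

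EGR3 and EGR4 held no region over the gene. EGR3, on chromosome 8, acts downstream of antigen receptor and neuronal signals, and EGR4 is mainly neuronal. Both had 0% gene coverage and no promoter region in all 4 libraries. The only EGR3 signal close to the gene was upstream of it, in a region of 330 bp in vehicle replicate 2 and of 1523 and 1748 bp in the CDDD11-8 libraries. Its summits lay between −1120 and −2511 bp, around the start of the antisense long non-coding RNA ENSG00000289521 at −1976 bp. Vehicle replicate 1 had no region there, so the vehicle libraries differed between themselves. The depth of the libraries is not given by the lists, so a value of 0% says only that no region was called.

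NR4A1 (NUR77) is the receptor of the family with a role in T cell receptor signalling and apoptosis. Its canonical isoform lies at chr12:52445226-52453287 on the plus strand. A region stood at the canonical start in all 4 libraries, 494 and 731 bp wide with vehicle and 2932 and 3057 bp wide with CDDD11-8. The vehicle regions ended at +299 and +245 bp, and the CDDD11-8 regions at +1875 and +1893 bp. Gene coverage was 3.72% and 3.05% with vehicle and 23.3% and 23.5% with CDDD11-8, or 3.39% ± 0.47 against 23.4% ± 0.16 (SD, n = 2 each), without overlap. The window from 1 to 2 kb after the TSS was at 0% in both vehicle libraries and at 87.6% and 89.4% with CDDD11-8, and the next kilobase stayed at 0% in all 4. Every covered base of the canonical gene body lay in the promoter region. On the longest isoform, gene coverage was 1.35% and 1.99% with vehicle and 10.3% and 8.34% with CDDD11-8, a mean difference of 7.63 percentage points without overlap. With CDDD11-8 most of the covered bases in replicate 1 and all in replicate 2 lay around the canonical start, away from the promoter region of the longest isoform, which held 0.57% and 0% of its body.

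The highest NR4A1 promoter summit was at +34 bp with a fold of 3.06 (percentile 27.4) and at +39 bp with 2.69 (percentile 13.8) with vehicle. With CDDD11-8 it was at +2 bp with 15.05 (percentile 84.6) and at +80 bp with 5.72 (percentile 63.0). By fold the percentile was higher in both CDDD11-8 libraries, but by pileup it was 91.5 and 78.4 with vehicle against 85.6 and 80.1, which overlapped. By −log10 q-value it was 80.2 and 50.9 against 85.3 and 75.4, which also overlapped. Among the highest promoter summits of all genes in the same list, the NR4A1 percentile by fold was 13.6 and 2.19 with vehicle. It was 27.3 and 11.0 with CDDD11-8, and the groups overlapped. The gain in rank at NR4A1 therefore depended on the measure ranked and on the summits it was ranked among. One body summit was called in CDDD11-8 replicate 1, at +1202 bp with a fold of 7.99. Replicate 2 had 2, the higher at +1256 bp with a fold of 4.48. The log2 ratio of promoter to body fold was 0.91 and 0.35. At the start of the longest isoform, at −28610 bp from the canonical start, only CDDD11-8 replicate 1 had a region, 442 bp wide.

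NR4A2 (NURR1), needed for midbrain dopaminergic neurons, did not differ in coverage between the groups beyond their spread. Its canonical isoform lies at chr2:157180949-157189233 on the minus strand. Gene coverage was 7.18% and 10.1% with vehicle and 8.27% and 8.86% with CDDD11-8, and the groups overlapped. The promoter region was 3747 and 3693 bp wide with vehicle and 3777 and 4066 bp wide with CDDD11-8, so the CDDD11-8 values were higher by 201.5 bp on average. The strongest summits of this region were upstream, at −2039 and −1962 bp with vehicle and at −2097 and −1432 bp with CDDD11-8. Their percentiles by fold were 94.1 and 79.7 against 83.4 and 76.4. A further set of regions stood at the start of the longest isoform, at −9627 bp. There the promoter summit had a fold of 6.45 (percentile 88.8) and 13.4 (percentile 98.2) with vehicle, and 12.0 (percentile 81.4) and 16.8 (percentile 89.8) with CDDD11-8. Among the highest promoter summits of all genes in the same list, its percentile was 64.2 and 89.4 with vehicle against 21.4 and 55.2. It was lower in both CDDD11-8 libraries, and the share of all genes with such a fall was not counted. Among all summits of the list the percentiles of the groups overlapped, so the fall depended on the summits it was ranked among. For the highest summit within 300 bp of the canonical start, the percentile among promoter summits was 4.26 and 13.1 against 10.0 and 5.36, which overlapped. Coverage of the longest isoform was 33.7% and 41.8% with vehicle and 39.8% and 36.8% with CDDD11-8. Coverage of the groups thus overlapped on each isoform. Its log2 ratio of promoter to body fold on the longest isoform, −0.31 and 1.11 with vehicle and −0.91 and 0.29 with CDDD11-8, overlapped as well.

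NR4A3 (NOR1), the partner of EWSR1 in extraskeletal myxoid chondrosarcoma fusions, gained a region that ran up to its start. The canonical isoform lies at chr9:102584167-102629173 on the plus strand. No promoter region was called in vehicle replicate 1, and one of 469 bp, ending at −97 bp, was called in replicate 2. With CDDD11-8 the regions were 3675 and 3661 bp wide, from −3099 to +575 bp and from −3240 to +420 bp. Gene coverage was 0% and 0% with vehicle and 1.28% and 0.94% with CDDD11-8. The groups did not overlap, but the gain was small because only the very start of a gene of 45007 bp were reached. Most of the region lay upstream, with a summit near −2 kb in every library. Its fold was 2.89 (percentile 20.8) and 5.84 (percentile 81.6) with vehicle and 11.4 (percentile 80.5) and 4.81 (percentile 54.5) with CDDD11-8, and the percentiles of the groups overlapped. These summits are close to the starts of the antisense long non-coding RNA ENSG00000237461 at −1964 and −1996 bp, and RNAPII on the antisense gene cannot be told apart from that on NR4A3.

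**Figure D2:**
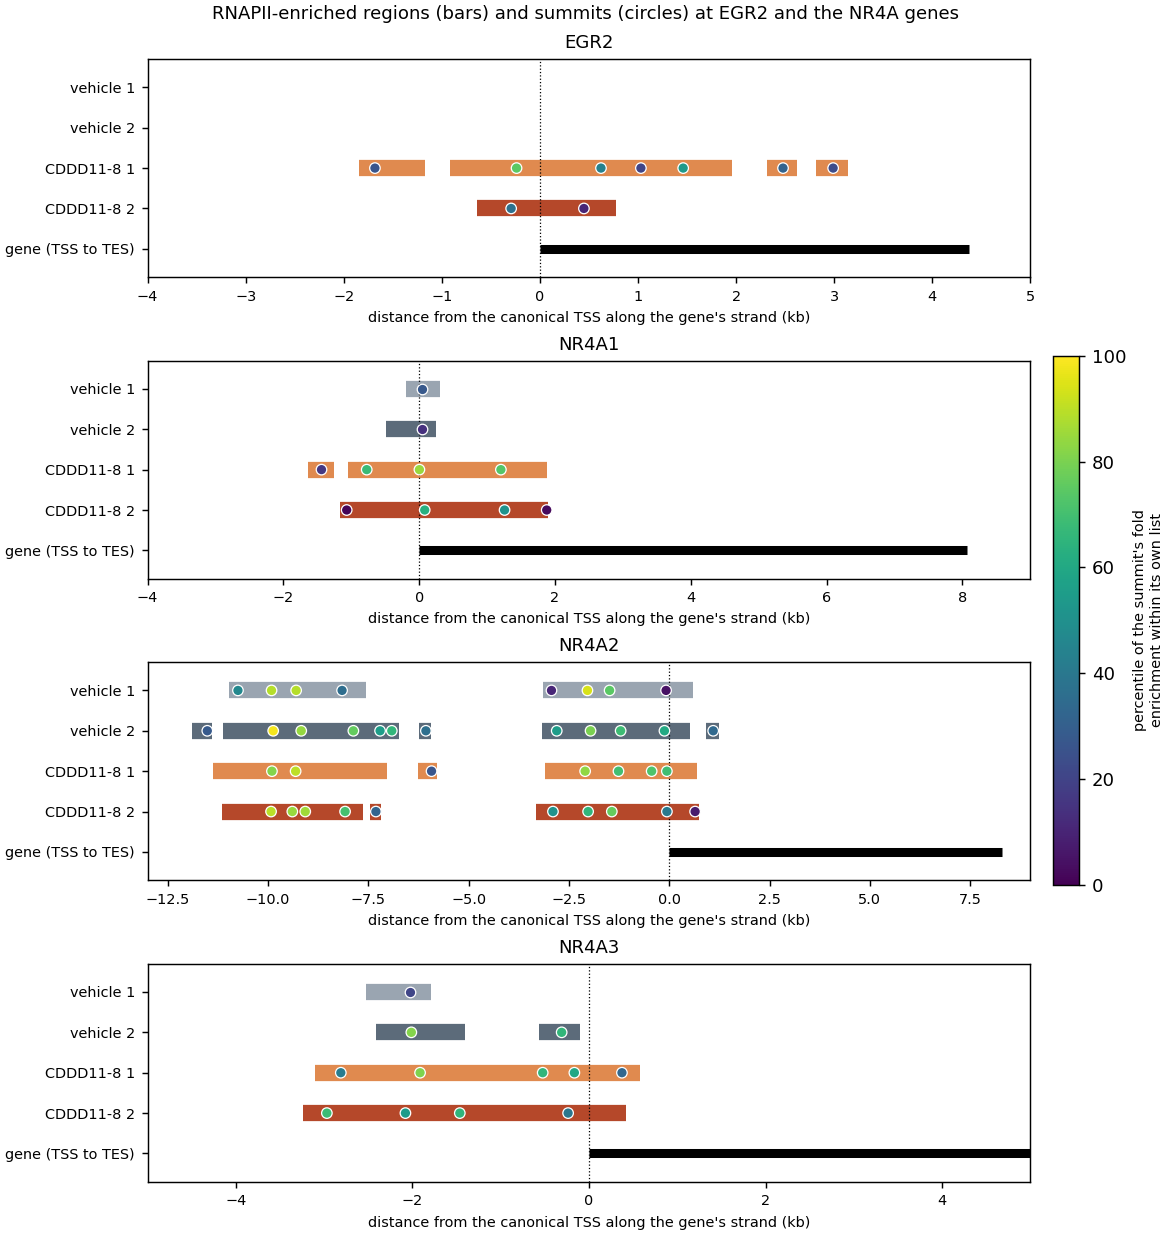
RNAPII regions (bars) and summits (circles) at EGR2, NR4A1, NR4A2 and NR4A3 in the 4 libraries, by distance from the canonical TSS in kb, shaded by the percentile of each summit's fold enrichment within its own list. EGR2 has no region near its start with vehicle, the NR4A1 region ends at +299 and +245 bp with vehicle and at +1875 and +1893 bp with CDDD11-8, and NR4A2 has regions at its canonical start and at its upstream start in all 4 libraries.

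Across the family, gene coverage of the canonical isoform was above both vehicle values in each CDDD11-8 library in 4 of 7 members (EGR1, EGR2, NR4A1 and NR4A3), against 16.1% of all genes. The same 4 were higher on the longest isoform, against 16.8%. None was lower, against 22% of all genes on the canonical and 22.5% on the longest isoform. EGR2, EGR3, EGR4 and NR4A3 had no covered base with vehicle and could not be lower, so only EGR1, NR4A1 and NR4A2 bear on this. With the same number of regions taken from each list, 5 of 7 members were higher on the canonical isoform, with NR4A2 added, against 25.6% of all genes. On the longest isoform the same 4 were higher under this setting, and the share of all genes was not counted. NR4A2 overlapped there, at 33.7% and 38.1% with vehicle against 39.8% and 36.8% with CDDD11-8. The members were chosen with such results known, so these shares are a description and no evidence that the family differs from other genes. The median difference over the 7 members was 1.11 percentage points on the canonical and 1.17 on the longest isoform, against 0 over all genes, and the members ranged from −0.10 to 80.5 on the canonical isoform. In order of mean difference on the canonical isoform the members were EGR1 (80.5), EGR2 (38.5), NR4A1 (means of 3.39% and 23.4%), NR4A3 (1.11), EGR3 and EGR4 (0 each) and NR4A2 (−0.10). The differences within same-numbered libraries were 86.6 and 74.4 points for EGR1, 59.4 and 17.7 for EGR2 and 19.5 and 20.4 for NR4A1. EGR2 and NR4A1, neighbours in this order, did not differ beyond that spread. NR4A3, at 1.28 and 0.94 points, and NR4A2, at 1.09 and −1.28, did not either. Among genes of up to 10 kb with a promoter region in all 4 libraries, 2 of 3 members (EGR1 and NR4A1) were higher, against 18.7% of 2411 genes.

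**Figure D3:**
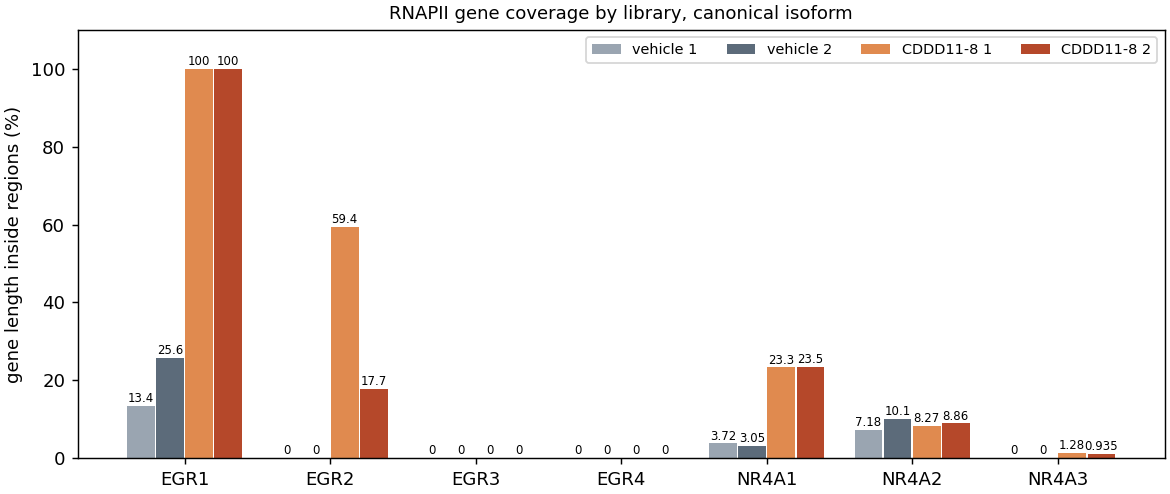
Percent of each gene's length inside RNAPII regions in each of the 4 libraries, canonical isoform, 1 bar per library with its value. EGR1 is at 100% in both CDDD11-8 libraries and at 13.4% and 25.6% with vehicle, EGR3 and EGR4 are at 0% throughout, and the NR4A2 bars of the groups overlap.

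A promoter region was present in all 4 libraries at 3 of 7 canonical starts (EGR1, NR4A1 and NR4A2), against 50.7% of all genes. It was wider in both CDDD11-8 libraries at all 3, against 64.5% of the 10030 genes with a region in all 4, so widening was common among all genes. The median gain in width over these members was 2382 bp, against 1215 bp over all such genes. EGR2 was the only member whose promoter region appeared in each CDDD11-8 library and was absent from each vehicle library, against 1.11% of canonical starts. On the longest isoform no member met this rule, against 1.13%. With equal numbers of regions taken from each list, NR4A3 met it too, giving 2 members on the canonical isoform, against 2.56% of genes, and 1 on the longest, against 2.49%. No member lost its promoter region in both CDDD11-8 libraries, against 0.677%, but only EGR1, NR4A1 and NR4A2 had one in both vehicle libraries to lose. A body summit was gained in both CDDD11-8 libraries from none with vehicle at 3 of 7 members (EGR1, EGR2 and NR4A1), against 1.74%. In CDDD11-8 replicate 2 the EGR2 body summit lay 111 bp from another annotated EGR2 start, at +337 bp. The lower NR4A1 body summit of that library lay 99 bp from an NR4A1 start at +1976 bp. RNAPII at such internal starts cannot be told apart from RNAPII in the body. Coverage of the 3 kb after the canonical TES was higher in both CDDD11-8 libraries at EGR1 alone, against 2.8% of genes. It was lower in both in 23.9% of genes. No member could be called lower, since each was at 0% there in at least 1 vehicle library. The other members were at 0% there, except EGR2 at 20.5% in vehicle replicate 2.

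**Figure D4:**
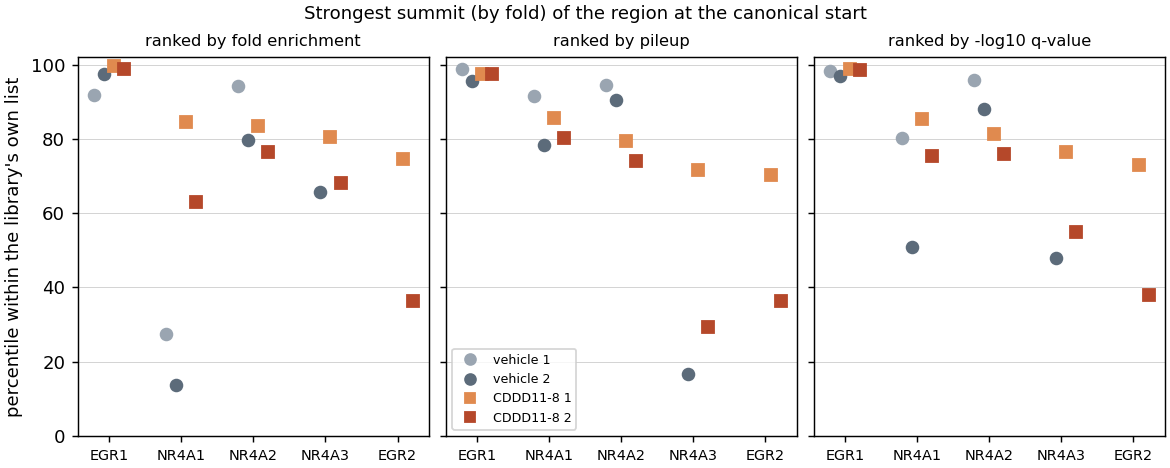
Percentile, within each library's own list, of the strongest summit by fold in the region at the canonical start, ranked by fold enrichment, pileup or −log10 q-value, with 1 point per library and none where no region was called. The NR4A1 points of the groups are apart by fold (27.4 and 13.8 against 84.6 and 63.0) and overlap by pileup and by −log10 q-value, and EGR1 lies above 90 throughout.

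Regions within 20 kb of each gene, measured from the longest isoform, included some at the starts of neighbouring genes. After EGR1, no region was called in either vehicle library and 2 were called in each CDDD11-8 library, all within the first 10 kb and including the one that runs over the gene. Before EGR1, 1 region was called in each library, the promoter region itself, and CDDD11-8 replicate 1 had a second towards REEP2. After EGR2, regions were present in all 4 libraries around the start of ADO, with summits between 11481 and 11549 bp after the EGR2 start at percentiles of 81.1 and 94.1 with vehicle and 99.3 and 94.7 with CDDD11-8. The EGR3 flank held the start of BIN3 about 24 kb away and the EGR4 flank a start of FBXO41 about 9 kb away. Before NR4A1, 4 and 3 regions were called with vehicle and 4 and 1 with CDDD11-8. With vehicle their summits lay at least 1576 bp from the nearest protein-coding or long non-coding RNA start. After NR4A1, a region stood at the start of ATG101 in all 4 libraries. Its summits had percentiles of 28.6 and 75.8 with vehicle and 94.1 and 94.6 with CDDD11-8. No region was called in the 20 kb after NR4A2 or NR4A3 in any library.

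Of 15 partners and upstream regulators of the members, 2 had higher coverage in both CDDD11-8 libraries, 5 had lower and 8 had neither, beside 16.8% of all genes higher and 22.5% lower on the longest isoform. These were the EGR corepressors NAB1 and NAB2, serum response factor and its ELK and MRTF cofactors, CREB1 and its CRTC coactivators, and the retinoid X receptors that pair with NR4A1 and NR4A2. CREB1 had the largest loss, with 30.9% and 16.0% covered with vehicle and 4.44% and 4.05% with CDDD11-8. ELK3 followed, with 14.6% and 13.2% against 9.64% and 0.75%. The largest mean gains were at SRF, with 3.51 percentage points, and at CRTC2, from 90.1% and 45.0% to 92.9% and 51.4%, and in both the groups overlapped. Of 36 other immediate-early genes, 13 were higher, 4 lower and 19 neither, beside the same 16.8% and 22.5% of all genes. The median difference was 0.65 percentage points on the longest isoform, against 0 over all genes. FOS, a subunit of AP-1, had the largest gain, with 21.2% and 13.6% covered with vehicle and 92.4% and 80.4% with CDDD11-8. DUSP1, a phosphatase of MAP kinases, followed with 26.0% and 55.8% against 98.5% and 72.2%. The transcription factor MYC was lower, with 67.1% and 57.3% against 43.8% and 39.9%. The antiproliferative gene BTG1 had the largest loss, with 79.1% and 81.7% against 60.5% and 58.4%.

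The genes most like EGR1 could not be found with the promoter summit included, because EGR1 had no summit within 300 bp of its TSS in vehicle replicate 2. By gene coverage in the 4 libraries alone, a measure chosen after the values were seen, the nearest of the 19794 genes were AL356356.1, ADAMTSL4 and BNIPL, all on chromosome 1. Their distances from EGR1 over the 4 values were 5.38, 9.63 and 11.7 percentage points. AL356356.1 was covered over 17.7% and 22.4% of its length with vehicle and over 100% in both CDDD11-8 libraries. ADAMTSL4 was at 22.3% and 22.0% with vehicle and at 100% in both CDDD11-8 libraries. BNIPL was at 21.2% and 24.1% with vehicle and at 92.2% and 96.4% with CDDD11-8.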

How the data were processed

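RNAPII ChIP-seq of MDA-MB-453 cells gave 4 lists, 2 per treatment. Files of the 4 input libraries were not used. Paired-end reads had been mapped by the authors to GRCh37 (Bowtie 2), and each library was called against its input by MACS2 at default settings, without pooling. The deposited pileup is a signal, whole in the vehicle lists and scaled in the CDDD11-8 lists. Fold enrichment, as deposited, is the ratio of pileup to local background. Both the p-value and the q-value were deposited as −log10, and deposited lengths are in bp. The lists hold no read totals, so depth is unknown, and longer lists reach weaker summits.

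Rows of one region were joined. Genes came from GENCODE release 44 mapped to GRCh37, protein-coding, longest isoform, with the Ensembl canonical isoform as an alternative shown beside it. Members and lists were chosen with earlier results of these data known. Every member was to be named, with the 2 largest falls and rises of each other list. Group means of 2 libraries were described with no test. Measures were tested on simulated regions. A marker gene and some upstream sequences are not reported here. All listed regions lay within the chromosome lengths of the reference. Python 3.11.15, numpy 2.4.6, pandas 2.3.3 and matplotlib 3.10.9 were used. Alternatives were equal numbers of regions, a minimum −log10 q-value of 5, other windows, regions within 1 kb merged, each library left out and a replicate block.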

Additional observations from a re-analysis of the deposited data

How the results depend on the processing

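Coverage was higher with CDDD11-8 in 3 to 5 members under every setting run, and EGR1 kept its direction under all of them. The share of all genes was 16.8% on the longest and 16.1% on the canonical isoform. It was 25.6% on the canonical isoform with equal numbers of regions, and was not counted under the other settings. The count of 3 came with a body from 2 kb after the TSS, where the NR4A3 difference was 0. With 1 library left out, non-overlap is easier to meet. NR4A2 changed sign: its mean difference of 0.52 percentage points became −0.88 at a minimum −log10 q-value of 5, −0.10 on the canonical isoform (with or without that q-value limit), −3.52 without vehicle replicate 1 and −0.96 without CDDD11-8 replicate 1. Leaving out 1 library at a time, the median coverage difference of 1.17 ranged from 1.00 to 4.55 (4.55 without vehicle replicate 2), and the number of members lower ranged from 0 to 1 (1 without vehicle replicate 1, NR4A2). The median gain in promoter width of 3338 bp, over 2 members, was 2382 bp on the canonical isoform, over 3 members, with or without equal numbers of regions or a minimum −log10 q-value of 5, and 4388 bp with regions within 1 kb merged. The cause was not tested. The settings that join the canonical isoform with another limit were chosen after seeing the data. A replicate block cannot move these mean differences in a balanced design, so its median of 1.17 is no check on them. The same-numbered pairs gave 6.03 and 1.00 percentage points, and nothing in the labels says that a number marks a shared day. Without read totals, values of 0% cannot be told from signal under the calling threshold.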
